A study of Mus musculus with 8 samples.

Results

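The Ikaros family of zinc finger transcription factors was taken by symbol as Ikzf1, Ikzf2, Ikzf3, Ikzf4 and Ikzf5, which makes 5 of the 53647 genes listed in the count files. All 5 were among the 16352 genes that passed the filter on low counts and were tested. RNA of mouse bone marrow cells sorted as Lin- CD127+ was sequenced in 4 knockout libraries, labelled with the genotype Tref1 -/- (spelled so in the labels), and in 4 wild-type libraries, labelled Trerf1 +/+. The knockout (KO) and wild-type (WT) libraries are numbered 1 to 4 in each group, and CD127 is the alpha chain of the interleukin 7 receptor. The strain, age and sex of the mice, the cells in which Trerf1 is deleted and the exons removed are not given in the sources used here. Whether the libraries of a group came from separate animals is not labelled, and the p-values reflect only the spread among these 8 libraries, which may be technical.

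Ikaros proteins bind DNA through zinc fingers in their amino-terminal part and pair with each other through zinc fingers at the carboxyl end, so that members present in the same cell can form mixed dimers. They bring chromatin machinery to their target genes, above all the nucleosome remodelling and deacetylase (NuRD) complex, and so hold some genes down and keep others open. In mouse marrow, Ikaros (Ikzf1) is needed for lymphoid development and is present from early progenitors on. Aiolos (Ikzf3) gains in level as B cells mature, Helios (Ikzf2) is known from early progenitors and from regulatory T cells, Eos (Ikzf4) from regulatory T cells, and Pegasus (Ikzf5) is the more distant member that is found in many tissues.

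The members lie on 4 chromosomes in the coordinates of the count files, taken as GRCm39 from the annotation named in their headers. Ikzf1 (ENSMUSG00000018654.18) is on the plus strand at chr11:11635003-11722926, with 5777 exon bases and 6 transcripts. Ikzf3 (ENSMUSG00000018168.9) is on the minus strand of the same chromosome at chr11:98355728-98436857, with 8754 exon bases and 4 transcripts. Ikzf2 (ENSMUSG00000025997.14) is on the minus strand at chr1:69570373-69726404, with 11613 exon bases and 9 transcripts. Ikzf4 (ENSMUSG00000002578.19) is on the minus strand at chr10:128466712-128505227, with 6461 exon bases and 10 transcripts. Ikzf5 (ENSMUSG00000040167.17) is on the minus strand at chr7:130990381-131012250, with 5721 exon bases and 7 transcripts.

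Promoter windows of 250 bases before to 50 bases after a gene's start were taken from RefSeq (GRCm38.p6) for Ikzf1, which has an upstream and a downstream start, and for Ikzf5. These were the 2 of the 5 members that matched the RefSeq window table, and Ikzf2, Ikzf3 and Ikzf4 were not matched. The windows show the bases around the start of the most abundant member and of the member whose count is least certain. Capitals mark the letters GGGAA or their reverse TTCCC, which are the core of the sequence that Ikaros proteins bind. The windows lie at chr11:11685675-11685974 (plus strand), chr11:11689927-11690226 (plus strand) and chr7:131410429-131410728 (minus strand).
Ikzf1 upstream start: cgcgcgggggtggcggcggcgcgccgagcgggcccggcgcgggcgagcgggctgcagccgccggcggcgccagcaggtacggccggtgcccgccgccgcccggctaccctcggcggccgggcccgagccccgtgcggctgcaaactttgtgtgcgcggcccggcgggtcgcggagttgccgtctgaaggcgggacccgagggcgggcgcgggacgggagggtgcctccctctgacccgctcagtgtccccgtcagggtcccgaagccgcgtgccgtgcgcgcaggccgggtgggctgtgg
Ikzf1 downstream start: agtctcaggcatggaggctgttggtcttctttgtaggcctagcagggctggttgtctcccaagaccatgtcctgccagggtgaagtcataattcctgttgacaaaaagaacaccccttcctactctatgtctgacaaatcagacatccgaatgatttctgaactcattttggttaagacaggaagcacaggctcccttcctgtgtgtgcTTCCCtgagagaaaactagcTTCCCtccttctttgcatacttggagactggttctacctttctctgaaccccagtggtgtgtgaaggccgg
Ikzf5 start: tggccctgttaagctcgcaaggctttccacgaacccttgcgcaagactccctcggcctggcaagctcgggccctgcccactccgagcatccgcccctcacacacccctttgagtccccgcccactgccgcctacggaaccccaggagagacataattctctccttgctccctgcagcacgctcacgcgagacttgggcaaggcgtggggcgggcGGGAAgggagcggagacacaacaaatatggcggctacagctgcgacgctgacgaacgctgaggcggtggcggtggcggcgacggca

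The upstream Ikzf1 window held 52 CpG dinucleotides and 81.3% G or C, and 99.4% of all 32851 windows held fewer CpG. The downstream Ikzf1 window held 2 CpG and 49.0% G or C, with fewer CpG in 14.1% of windows. The Ikzf5 window held 27 CpG and 65.7% G or C, with fewer in 84.5% of windows, where the median window held 7 CpG and 52.7% G or C. So the 2 starts of Ikzf1 differ widely in CpG, and that of Ikzf5 lies above the median. On both strands together, GGGAA was found 2 times in the downstream Ikzf1 window, 1 time in the Ikzf5 window and 0 times in the upstream Ikzf1 window, and 62.7% of all windows held it. The longer TGGGAA, which overlaps it, was in 25.6% of all windows and had 0 matches in these 3. A match is a run of letters and not a measured site.

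The count files held 32821991 to 66515540 counts per KO library and 31109744 to 73414626 per WT library, with KO4, WT2 and WT4 the deeper ones. All 6 markers of the sorted progenitors were measured. Of these, 4 had a higher and 2 (Kit and Rag1) a lower mean in KO libraries, with a median log2 fold change of 0.07. Il7r, which encodes CD127, averaged 354 ± 45.8 on the counts-per-million (CPM) scale in KO libraries and 324 ± 46.8 CPM in WT libraries (SD, n = 4 each). Flt3 averaged 1110 ± 186 and 1070 ± 169 CPM in KO and WT libraries. Trerf1, the targeted gene, had 13.4, 12.8, 12.1 and 22.1 CPM in KO libraries, against 29.0, 32.1, 27.1 and 22.3 CPM in WT libraries. The groups did not overlap, but the library labelled KO4 lay beside WT4 and away from the other KO libraries. In RSEM TPM, a scale per transcript length, the groups overlapped, with 6.54 in KO4 and 5.31 in WT4. Whether KO4 lacks Trerf1 as its label says was not tested, and KO4 is part of each KO mean below. The log2 fold change of Trerf1 was -0.87 ± 0.20 (SE), with an unadjusted p of 0.00151 and an adjusted p of 0.999 (edgeR, Benjamini-Hochberg). Without WT4 and KO4, a choice made after seeing the data, it was -1.20 with an adjusted p of 0.0473 (edgeR). KO2, WT2 and WT3 held at most 0.613 CPM of Xist, which coats the inactive X chromosome, and the other 5 libraries held 447 to 768 CPM.

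Ikzf1 RNA was by far the most abundant of the family and Ikzf4 RNA the least, and both held those places in 8 of 8 libraries. The deposited RSEM values on the transcripts-per-million (TPM) scale, which corrects for transcript length, allow the members to be set beside each other. In TPM, Ikzf1 had 98.6, 92.0, 101 and 103 in KO libraries, against 112, 126, 106 and 92.6 in WT libraries. Ikzf5 had 35.3, 26.9, 32.9 and 35.3 TPM in KO libraries, against 39.0, 31.5, 26 and 35.5 TPM in WT libraries. These are the upper members of the family, and their groups overlapped.

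Ikzf3 followed with 9.70, 7.75, 8.75 and 12.2 TPM in KO libraries, against 10.2, 16.8, 20.8 and 7.38 TPM in WT libraries. Ikzf2 had 6.11, 4.30, 5.02 and 14.4 TPM in KO libraries, against 7.68, 12, 11.2 and 6.38 TPM in WT libraries. In TPM, Ikzf3 was above Ikzf2 in 7 of 8 libraries, the exception being KO4, and their ranges over libraries overlapped. By CPM per kilobase of exon it was above in 3 of 8, so the order of these neighbours depends on the scale. Ikzf4 had 0.19, 0.31, 0.16 and 0.36 TPM in KO libraries, against 0.31, 0.27, 0.15 and 0.26 TPM in WT libraries. Its estimate rested on 3 to 19 fragments per library, so a TPM of Ikzf4 carries a large counting error.

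By RSEM TPM, Ikzf1 made up 66.7% ± 3.35 of the summed RNA of the family in KO libraries and 65.9% ± 1.29 in WT libraries (SD, n = 4 each). Ikzf5 made up 21.9% ± 1.31 in KO libraries and 20.2% ± 4.51 in WT libraries. The share of Ikzf3 was 6.41% ± 0.688 in KO libraries and 8.20% ± 3.37 in WT libraries, and that of Ikzf2 was 4.86% ± 2.58 in KO libraries and 5.56% ± 1.22 in WT libraries. Ikzf4 made up 0.172% ± 0.0641 in KO libraries and 0.150% ± 0.0435 in WT libraries. The make-up of the family therefore differed between the groups by less than the larger of their SDs for each member. The summed TPM of the family ranged from 131 to 165 in KO libraries and from 142 to 187 in WT libraries, and these ranges overlapped.

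The place of Ikzf5 depended on how its reads were counted. Of its 5721 exon bases, 4652 (81.3%) are also exon bases of Pstk, which encodes phosphoseryl-tRNA kinase, an enzyme of selenocysteine synthesis, and lies on the opposite strand at chr7:130972870-130996211. A further 183 bases (3.2%) are shared with Gm44624, and 886 (15.5%) are exonic in no other gene. The library kit does not mark strand, and the default counting that the file headers show leaves out reads that overlap exons of more than 1 gene. In the GENCODE M21 annotation of GRCm38, the same number of shared bases covers 1202 of the 1335 coding bases of Ikzf5 and 2 of the 1123 coding bases of Pstk. The coding part of Ikzf5 thus lies almost wholly within exon bases shared with its neighbour.

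Ikzf5 had 0.239 counts per RSEM fragment over the 8 libraries (0.216 to 0.312 by library), against a median of 4.32 over 13647 genes. Only 4.52% of those genes had a lower ratio, and the other 4 members lay between 4.20 and 4.63. Ikzf5 RNA was 31.8% ± 5.08 of Ikzf1 RNA by RSEM TPM (SD, n = 8), 1.52% ± 0.173 by CPM per kilobase of all exon bases, and 9.79% ± 1.12 by CPM per kilobase of the bases exonic in no other gene. It stood above both Ikzf2 and Ikzf3 in 8 of 8 libraries by TPM and by the bases of its own, and in 0 of 8 by all exon bases. The deposited values thus do not fix the level of Ikzf5, and RSEM itself has to divide unstranded fragments between Ikzf5 and Pstk. How far the shared bases account for the low count was not tested. Ikzf1 and Ikzf3 share no exon bases with another gene, and Ikzf2 and Ikzf4 share 1.24% and 0.573% of theirs.

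**Figure D1:**
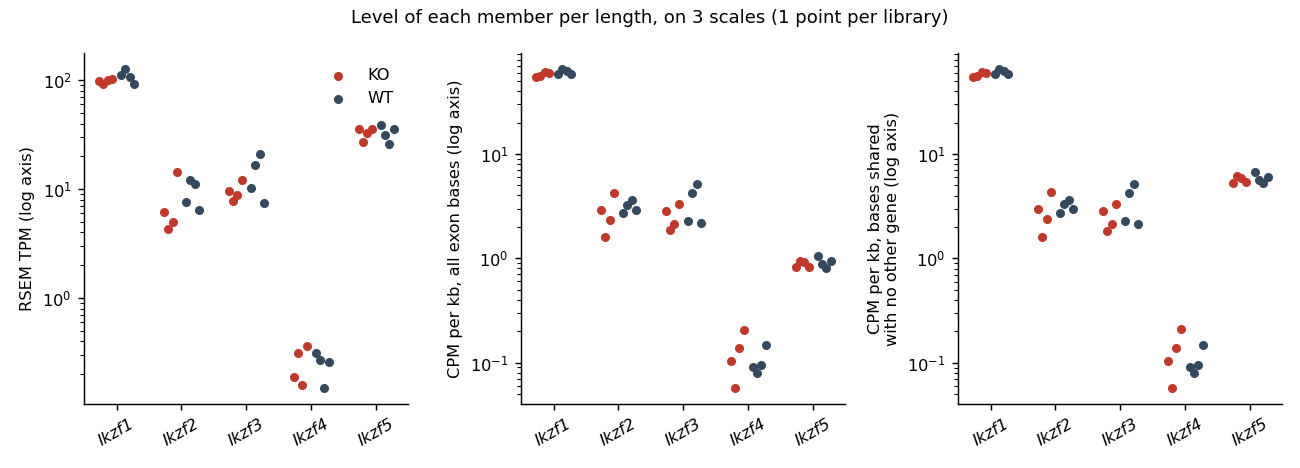
Level of each Ikaros family member per length in each library, KO in red left of WT in dark grey, on log axes: RSEM TPM (left), CPM per kilobase of all exon bases (middle) and CPM per kilobase of bases exonic in no other gene (right). Ikzf1 is highest and Ikzf4 lowest on all 3 scales, while Ikzf5 averages 0.901 CPM per kilobase in the middle panel and 5.82 on the right.

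None of the 5 members passed the test of KO against WT: each had an adjusted p of 0.999 (edgeR, Benjamini-Hochberg), and KO and WT overlapped for 5 of 5 members in both CPM and TPM. Over all 16352 genes tested, edgeR called 0 (0.0%), DESeq2 called 0 of 29987 and limma-voom with library quality weights called 0 of 16352. At an unadjusted p under 0.05 the counts were 322 genes (1.97%) in edgeR, 565 (1.88%) in DESeq2 and 891 (5.45%) in limma-voom, and 0 of the 5 members were among the 322. KO and WT did not overlap in CPM for 210 genes (1.28%). In bulk RNA, fewer cells of a type and less RNA per cell cannot be told apart, which holds for each comparison here. Values below are CPM scaled by the trimmed mean of M values (TMM), which can be compared between libraries for 1 gene but not between genes.

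Ikzf1 had 319, 324, 353 and 347 CPM in KO libraries, against 338, 375, 362 and 337 CPM in WT libraries. The 2 lowest values are those of KO1 and KO2, but KO3 and KO4 lay among the WT libraries. The means were 336 ± 17 CPM in KO libraries and 353 ± 18.7 CPM in WT libraries (SD, n = 4 each). The log2 fold change was -0.07 ± 0.08 (SE), with a 95% interval of -0.25 to 0.11 and an unadjusted p of 0.396 (edgeR). That interval spans KO levels of 0.838 to 1.08 times those of WT, so a larger change of Ikzf1 RNA lies outside it. The gene had little spread: the SD of its log2 CPM over the 8 libraries was 0.08, and 2.37% of tested genes had a smaller one. Its mean CPM, which is not corrected for length and so ranks counts alone, was above that of 97.2% of tested genes. Highly counted genes have less counting error.

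Ikzf2 had 33.9, 18.6, 27.3 and 49.1 CPM in KO libraries, against 31.5, 37.9, 41.7 and 33.8 CPM in WT libraries. The KO libraries held both the lowest and the highest value, with KO2 lowest and KO4 highest, and all WT libraries lay between them. Between the groups the log2 fold change was -0.17 ± 0.24 (SE), with a 95% interval of -0.70 to 0.37 and an unadjusted p of 0.507 (edgeR). It was 0.02 without KO2 and -0.45 without KO4. The mean was 32.2 ± 12.8 CPM in KO libraries and 36.2 ± 4.50 CPM in WT libraries (SD, n = 4 each).

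RSEM also gives the mean length of the transcripts to which it assigned a gene's fragments, and for Ikzf2 that length varied. It was 6714, 5243, 6148 and 4456 bases in KO libraries, against 5710, 4355, 4828 and 6280 bases in WT libraries. The 3 shortest values, in KO4, WT2 and WT3, belong to the 3 libraries with the highest Ikzf2 CPM. Because TPM divides by this length, Ikzf2 spanned 3.34-fold between its highest and lowest library in TPM and 2.63-fold in CPM. Short forms of Helios that lack DNA-binding zinc fingers are known, but the per-gene values used here do not show which transcripts were present.

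Ikzf3 had 25.0, 16.2, 18.5 and 29.1 CPM in KO libraries, against 20.1, 36.9, 44.8 and 18.9 CPM in WT libraries. WT2 and WT3 stood highest, WT1 and WT4 lay among the KO libraries, and KO2 was lowest. The means were 22.2 ± 5.92 CPM in KO libraries and 30.2 ± 12.8 CPM in WT libraries (SD, n = 4 each). The log2 fold change of -0.44 ± 0.29 (SE) was the lowest of the family, with a 95% interval of -1.08 to 0.20 and an unadjusted p of 0.159 (edgeR), at place 1718 of the 16352 genes. Without WT3 it was -0.19. These libraries therefore leave room for KO levels of Ikzf3 between 0.472 and 1.15 times those of WT.

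Ikzf4 had 0.669, 0.370, 0.892 and 1.34 CPM in KO libraries, against 0.580, 0.516, 0.613 and 0.942 CPM in WT libraries. These stand for 12 to 89 counts per library, and the lowest and the highest CPM are those of KO2 and KO4. In TPM, KO4 was also highest, but KO2 had 0.31 and the lowest was WT3 with 0.15. On the log2 scale the fold change was 0.31 ± 0.43 (SE), with a 95% interval of -0.63 to 1.26 and an unadjusted p of 0.480 (edgeR). That interval spans KO levels of 0.644 to 2.4 times those of WT, a width that goes with the low counts. Without KO4 the log2 fold change was -0.05.

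Ikzf5 had 4.71, 5.43, 5.26 and 4.74 CPM in KO libraries, against 6, 5.05, 4.66 and 5.38 CPM in WT libraries. WT1 was highest and WT3 lowest, and all KO libraries lay between them. The log2 fold change was -0.07 ± 0.18 (SE), with a 95% interval of -0.46 to 0.33 and an unadjusted p of 0.713 (edgeR). RSEM fragments, of which Ikzf5 had 565 to 1629 per library, gave a log2 fold change of -0.01 with an interval of -0.28 to 0.26 and an unadjusted p of 0.946 (edgeR). Its neighbour Pstk averaged 20 ± 1.24 CPM in KO libraries and 21.2 ± 1.71 CPM in WT libraries (SD, n = 4 each). Neither way of counting separated the groups for Ikzf5, although they place its level far apart.

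**Figure D2:**
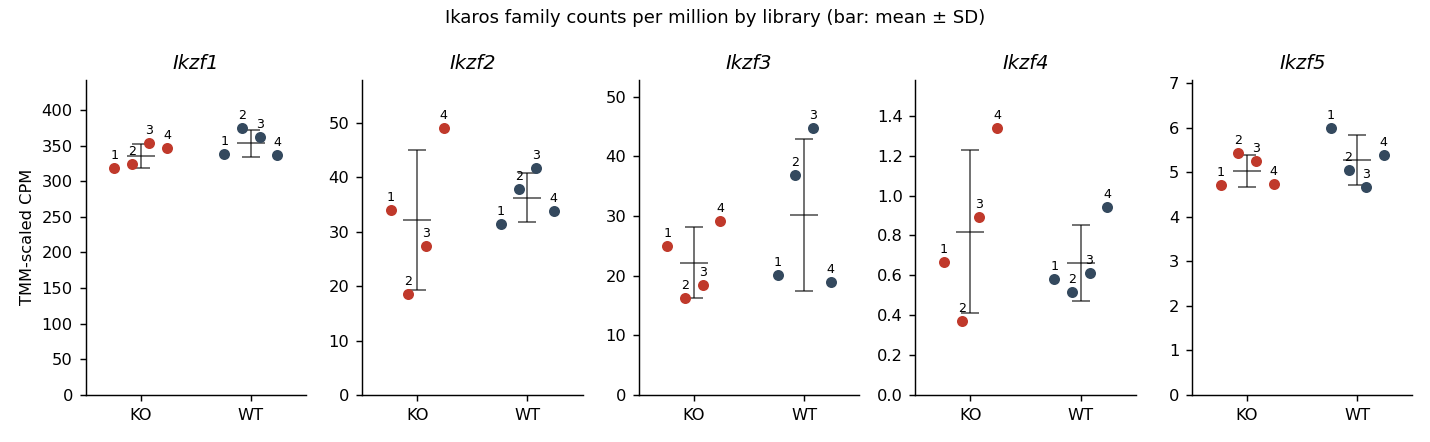
TMM-scaled CPM of each Ikaros family member, KO left of WT, with 1 numbered point per library, linear axes that start at 0 and a bar for the mean ± SD of 4 libraries. KO and WT overlap for all 5 genes, Ikzf1 stays within 319 to 375 CPM, and for Ikzf2 and Ikzf4 KO2 is the lowest and KO4 the highest library.

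The values of Ikzf2 and Ikzf3 were set beside other features of the libraries, and no test compared the members on this. KO4, WT2 and WT3 were the 3 highest libraries for both genes, and KO2 was the lowest for both. Of 8 markers of group 2 innate lymphoid cells (ILC2), which carry CD127, 7 had a lower and 1 (Il2ra) a higher mean in KO libraries. Their median log2 fold change was -0.57, and over all genes tested 51.7% were higher. Il9r (-1.07) and Ccr8 (-1.11) were the 2 under an unadjusted p of 0.05 (edgeR), where 1.97% of all genes were. As over all genes, 0 of the 8 were called, and none was at 0 in all libraries. Their summed level was 341, 192, 378 and 420 CPM in KO libraries, against 304, 399, 615 and 327 CPM in WT libraries. That sum was highest in WT3, KO4 and WT2 and lowest in KO2. Gata3, the defining factor of ILC2 that other lymphoid cells also carry, had the highest CPM of the 8 and so weighs most in the sum. Gata3 averaged 196 ± 58.6 CPM in KO libraries and 229 ± 87.7 CPM in WT libraries (SD, n = 4 each). Il1rl1, the receptor for interleukin 33, averaged 44.7 ± 14.9 CPM in KO libraries and 68.2 ± 31.6 CPM in WT libraries. The part of these cells in the Ikzf2 and Ikzf3 values was not tested.

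Markers of other cells that the sort could hold also had 0 members called, as over all genes (0.0%), and all were counted in at least 1 library. Over all genes tested, 51.7% were higher in KO libraries. Of 10 B lineage markers, 7 had a higher and 3 a lower mean in KO libraries, with a median log2 fold change of 0.24. The 3 were Ebf1 (-0.04), Pax5 (-0.05) and Cd24a (-0.13), which had the highest CPM of the 10. Summed, the 10 had 487 to 679 CPM in KO libraries and 511 to 630 CPM in WT libraries. Cd79a, which carries signals from the B cell receptor, averaged 119 ± 17.8 CPM in KO libraries and 91.6 ± 6.41 CPM in WT libraries (SD, n = 4 each), with an unadjusted p of 0.00781 and an adjusted p of 0.999 (edgeR). It was the only 1 of the 10 under an unadjusted p of 0.05, where 1.97% of all genes were. Of 8 T cell markers, 6 had a higher and 2 (Lat and Trat1) a lower mean in KO libraries, with a median of 0.24. Summed, the 8 had 173 to 229 CPM in KO libraries and 159 to 249 CPM in WT libraries. Cd3g and Cd5, of the T cell receptor complex and its surface partners, were the 2 with an unadjusted p under 0.05, where 1.97% of all genes were. Their log2 fold changes were 0.82 and 0.34. Cd5 had 12.9 to 16.7 CPM in KO libraries and 11.2 to 12.3 CPM in WT libraries. Its groups thus did not overlap in CPM, as for 1.28% of all genes, but they did in TPM.

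The 8 markers of group 1 innate lymphoid and natural killer cells were 4 higher and 4 lower in KO libraries, with a median log2 fold change of 0.03, and summed to 162 to 218 CPM in KO libraries and 153 to 228 CPM in WT libraries. The 8 markers of plasmacytoid dendritic cells were 3 higher and 5 lower, with a median of -0.01, and summed to 3964 to 5099 CPM in KO libraries and 3570 to 6574 CPM in WT libraries. All 8 monocyte and granulocyte progenitor markers had a higher mean in KO libraries, with a median of 0.50, and 3 of them (Csf1r, F13a1 and Prtn3) had an unadjusted p under 0.05, where 1.97% of all genes did. Their sums were 369 to 558 CPM in KO libraries and 373 to 415 CPM in WT libraries. All 8 erythroid markers had a lower mean in KO libraries, with a median of -1.07 and 0 under an unadjusted p of 0.05, and summed to 40.2 to 222 CPM in KO libraries and 46.0 to 561 CPM in WT libraries. The sums of each list overlapped between the groups, and the part of these cell types in the members' values was not tested.

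**Figure D3:**
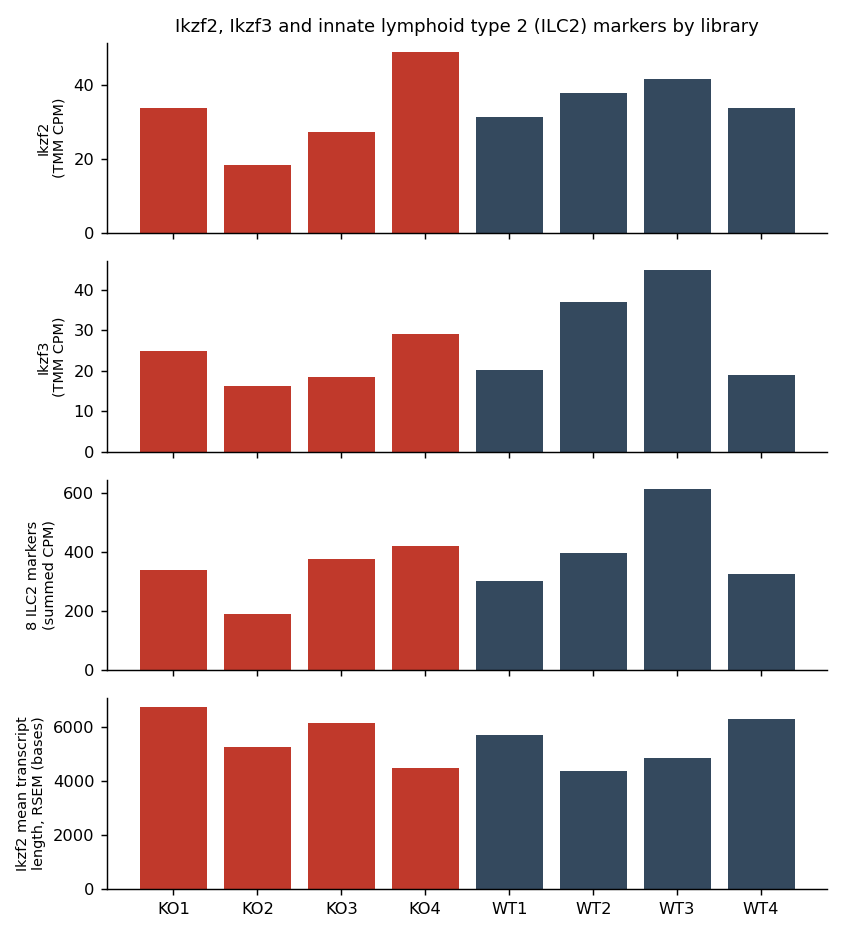
Bars from 0 for each library, the 4 KO libraries in red left of the 4 WT libraries in dark grey: Ikzf2 and Ikzf3 in TMM-scaled CPM, the summed CPM of 8 ILC2 markers, and the mean transcript length of Ikzf2 in RSEM. KO2 is lowest for both genes and for the marker sum (192 CPM), and KO4, WT2 and WT3 have the highest marker sums and the shortest Ikzf2 lengths.

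Which libraries were set against each other changed the values of Ikzf2, Ikzf3 and the sparsely counted Ikzf4 more than those of Ikzf1 and Ikzf5. For Ikzf4 the log2 fold change was -0.62 in the 3 libraries without Xist and 0.84 in the 3 deeper libraries. Without WT4 and KO4, a choice made after seeing the data, Ikzf3 had a log2 fold change of -0.77 with an unadjusted p of 0.0226 and an adjusted p of 0.486 (edgeR), where 12 of 16300 genes (0.0736%) passed adjustment and 1427 (8.75%) had an unadjusted p under 0.05. In the same 6 libraries Ikzf2 had a log2 fold change of -0.48 with an unadjusted p of 0.0496 and an adjusted p of 0.568 (edgeR), and Ikzf1 had -0.11. Neither member passed. Among the 5 libraries with Xist, the log2 fold change was 0.31 for Ikzf3 (95% interval -0.19 to 0.81), 0.17 for Ikzf2 (-0.39 to 0.72) and 0.00 for Ikzf1. The 3 libraries without Xist set KO2 alone, the lowest KO library for Ikzf3, against WT2 and WT3, the 2 highest WT libraries for it, and gave -1.36 for Ikzf3 and -1.11 for Ikzf2. These values restate the order of the libraries, and the intervals with Xist span 0, so no opposite direction is shown. A fit with a term for the difference between these effects was added after seeing the data. It called 0 genes (0.0%), with 666 (4.07%) under an unadjusted p of 0.05 (edgeR). Ikzf3 and Ikzf2 were both among these 666 genes (4.07%). Their log2 effects with Xist minus those without were 1.65 ± 0.35 and 1.27 ± 0.39 (SE). Both failed adjustment, with adjusted p of 0.706 for Ikzf3 and 0.998 for Ikzf2 (edgeR). KO2 is the only KO library without Xist, so these differences cannot be told apart from a trait of KO2.

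With the Xist class as a covariate, the log2 fold changes over all 8 libraries were -0.23 for Ikzf3 and -0.25 for Ikzf2. The 5 shallower libraries gave -0.70 ± 0.333 (SE) for Ikzf3 and -0.46 ± 0.253 for Ikzf2. The 3 deeper ones hold 1 KO library, KO4, and gave 0.01 ± 0.414 for Ikzf3 and 0.41 ± 0.327 for Ikzf2, so depth and the library labelled KO4 cannot be told apart there.

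None of the partners through which Ikaros proteins act passed the test. Over all 16352 genes tested, 0 (0.0%) did, so this does not set the partners apart. Of 18 genes of the NuRD complex and related corepressors, 10 had a higher and 8 a lower mean in KO libraries, 0 were called, and the median log2 fold change was 0.01, the same as over all genes tested, of which 51.7% were higher. Mta3, a NuRD subunit that varies with cell type, averaged 187 ± 33 CPM in KO libraries and 244 ± 47.0 CPM in WT libraries (SD, n = 4 each). Its log2 fold change was -0.38 ± 0.16 (SE), with an unadjusted p of 0.034 and an adjusted p of 0.999 (edgeR), and it was the only one of the 18 under an unadjusted 0.05, where 1.97% of all genes were. Gatad2a, which links the deacetylase and remodelling parts of NuRD, had 58.7 to 61.7 CPM in KO libraries and 64.3 to 67.2 CPM in WT libraries, so its groups did not overlap in CPM, as for 1.28% of all genes, and its log2 fold change was -0.12 ± 0.08 (SE), with an unadjusted p of 0.136 (edgeR). In TPM its groups did overlap, at 16.6 to 20 in KO libraries and 19.6 to 21.6 in WT libraries. Its paralog Gatad2b averaged 41.9 ± 3.30 CPM in KO libraries and 49.8 ± 11 CPM in WT libraries. Chd3, a remodelling ATPase of NuRD, averaged 72.4 ± 8.53 CPM in KO libraries and 83.4 ± 17.3 CPM in WT libraries. Rbbp7, a histone-binding subunit with the highest CPM of the list, averaged 566 ± 33.1 CPM in KO libraries and 527 ± 12.5 CPM in WT libraries.

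Ikaros proteins are phosphorylated by casein kinase 2, dephosphorylated by protein phosphatase 1 and, in human cells under drugs such as lenalidomide, marked for breakdown by the cereblon ubiquitin ligase. Of 11 genes of these enzymes, 7 had a higher and 4 a lower mean in KO libraries, and the median log2 fold change was 0.01. Over all genes tested, 51.7% were higher and 0 were called, and 0 of the 11 were called. Rbx1, a subunit of the ligase, averaged 241 ± 20.9 CPM in KO libraries and 221 ± 18 CPM in WT libraries, and Csnk2a2, a catalytic subunit of casein kinase 2, averaged 23.3 ± 4.10 CPM in KO libraries and 20.9 ± 5.74 CPM in WT libraries. Ppp1ca and Ppp1cc, catalytic subunits of protein phosphatase 1, averaged 609 ± 34.8 and 13.4 ± 1.44 CPM in KO libraries, against 571 ± 38.5 and 15.2 ± 3.89 CPM in WT libraries. All 4 had overlapping groups, and Ppp1cc, with 1.20 counts per RSEM fragment against the median of 4.32, is uncertain.

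Early lymphoid genes that need Ikaros in mouse progenitors showed 7 of 12 with a higher and 5 with a lower mean in KO libraries. Their median log2 fold change was 0.03, and 0 were called. Over all genes tested, 51.7% were higher and 0 were called. Ccr9, a homing receptor of progenitors bound for the thymus, averaged 329 ± 76.2 CPM in KO libraries and 373 ± 48.5 CPM in WT libraries (SD, n = 4 each), and Blnk, an adaptor of B cell receptor signalling, averaged 386 ± 17.8 CPM in KO libraries and 342 ± 74.2 CPM in WT libraries. Of 11 genes that Ikaros or Aiolos is known to hold down, 7 had a higher and 4 a lower mean in KO libraries, beside the same 51.7%. As over all genes, 0 were called, and the median log2 fold change was 0.09. Vpreb1 and Igll1, which encode the surrogate light chain of the pre-B cell receptor, averaged 14.3 ± 7.11 and 25.2 ± 13.7 CPM in KO libraries, against 10.1 ± 4.01 and 21 ± 6.59 CPM in WT libraries. For Vpreb1, whose reads can also match its near-identical copy Vpreb2, it was 0.51 ± 0.36 (SE) on the log2 scale, with an unadjusted p of 0.187 (edgeR). The cyclins Ccnd2 and Ccnd3 averaged 377 ± 71.3 and 1010 ± 151 CPM in KO libraries, against 350 ± 41.1 and 951 ± 99.1 CPM in WT libraries.

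**Figure D4:**
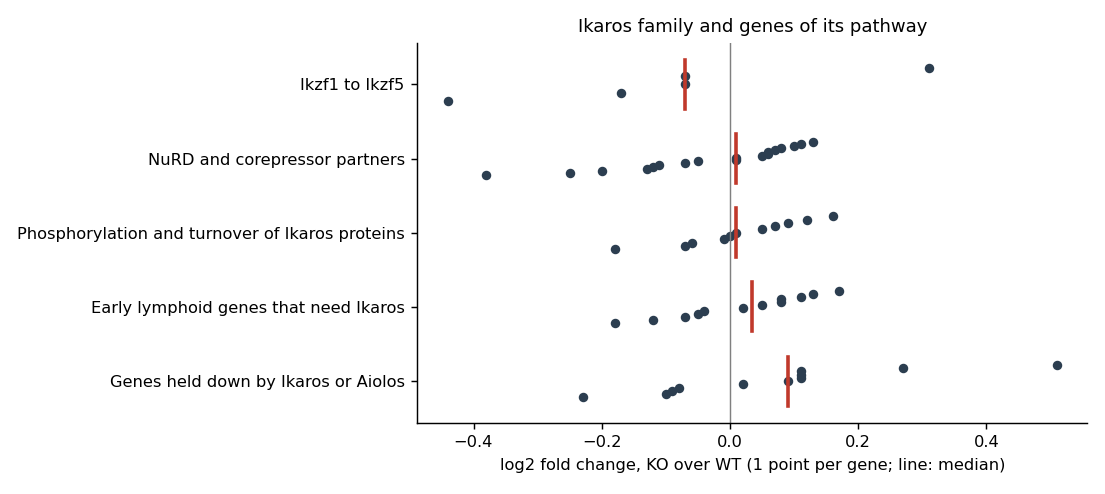
Log2 fold change of KO over WT for the 5 Ikaros family members and for the genes of 4 lists around them, with 1 point per gene and a line at each median. The medians of the 4 lists lie between 0.01 and 0.09, and the Mta3 point at -0.38 is the lowest of the NuRD list.

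The genes whose log2 CPM went most like that of a member over the 8 libraries were listed from 9614 protein-coding genes, as a description. With so many genes and 8 libraries that share depth and cell make-up, high values of Pearson's r arise readily. For Ikzf1 these genes were Polr1b (r = 0.96), Cep295 (0.93) and mt-Nd5 (0.93). For Ikzf2 they were Cep192 (0.95), Vps13d (0.94) and Akap7 (0.94), and for Ikzf3 Ppp4r3a (0.97), Lztfl1 (0.96) and Lpcat2 (0.96). For the sparsely counted Ikzf4 they were Spata5, Gpr183 and Eif1a (0.96 each), and for Ikzf5 Acly (0.94), Zc3h10 (0.93) and Slx4 (0.92). Without the 2 libraries farthest from the member's median, r lay between 0.78 for Slx4 and 0.97 for Spata5. With Ikzf3 in this way, Lztfl1 averaged 76.8 ± 10.7 CPM in KO libraries and 87.3 ± 20.8 CPM in WT libraries (SD, n = 4 each).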

How the data were processed

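Read counts per gene from featureCounts 1.6.4, per the file headers, and RSEM tables were deposited for every library. Whole-number counts were used as deposited. The RSEM expected counts that the authors deposited estimate fragments and were rounded before testing, and the deposited TPM values are scaled to transcript length and to each library. STAR 2.6.0a, Picard 2.19 and RSEM 1.3.1 are named in the submitters' processing notes, with build mm10, whereas the path in the headers names GRCm39. Each library held 3.665 to 4.003 counts per expected count, so counts are not independent fragments, and the counting error of a low count is larger than the count itself implies.

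The main test used edgeR 4.0.16 (R 4.3.3) on the counts of 8 libraries: filterByExpr (minimum count 10), TMM scaling, the quasi-likelihood F test of KO against WT with no covariate, and Benjamini-Hochberg adjustment over 16352 genes with a threshold of 0.05. Log2 CPM used a prior count of 3. DESeq2 1.42.0, limma 3.58.1, other scalings and filters, expected counts and sets of libraries were alternatives. Symbols were matched for 52093 of 53647 identifiers (97.1%). The members and gene lists were chosen with earlier results of these data known. Named genes are the 5 members, Trerf1, the 4 genes of each of the 4 pathway lists with the smallest unadjusted p and the highest by CPM, the 3 genes most like each member (mean CPM of at least 5), and those markers needed to describe a marker list. The values of 1 gene that this rule names are not reported here. Pstk, which shares exon bases with Ikzf5, and Xist were added after seeing the data. Promoter sequences are RefSeq's (GRCm38.p6).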

Additional observations from a re-analysis of the deposited data

Results flagged for a closer look

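The share of Ikzf2 in the summed TPM of the family was 8.68% in KO4, which stood apart from the other 3 KO libraries: its gap to the nearest of them was 0.852 of the range of the 4 KO libraries, above the 95% critical value of Dixon's test for 4 samples. It was 1 of 20 groups of 4 libraries checked, and chance alone flags about 1 in 20. KO4 is also the library labelled KO whose Trerf1 level (22.1 CPM) lay beside that of WT4 (22.3 CPM). The cause was not tested.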

How the results depend on the processing

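No member passed adjustment under any of the alternatives run. Log2 fold changes changed sign as follows. In the 5 libraries with Xist they were 0.00 for Ikzf1, 0.17 for Ikzf2 and 0.31 for Ikzf3. In the 3 without Xist they were -0.62 for Ikzf4 and 0.14 for Ikzf5. In the 3 deeper libraries they were 0.41 for Ikzf2 and 0.01 for Ikzf3. With RSEM expected counts and without WT4 and KO4, Ikzf5 had 0.00. Leaving out 1 library at a time gave -0.10 to -0.05 for Ikzf1, -0.45 to 0.02 for Ikzf2, -0.61 to -0.19 for Ikzf3, -0.05 to 0.55 for Ikzf4, -0.13 to -0.01 for Ikzf5 and -1.11 to -0.78 for Trerf1, with 0 genes called each time. Ikzf2 was above 0 only without KO2, and Ikzf4 below 0 only without KO4. Genes called over the whole table numbered 12 without WT4 and KO4 (Trerf1 among them, at -1.20), 1 with expected counts in the same libraries, 4 in the libraries without Xist and 2 in the deeper libraries. By counts per kilobase in place of TPM, the mean share of the family was 89.6% for Ikzf1, 4.42% for Ikzf3 and 1.36% for Ikzf5. Ikzf4 failed the filter with expected counts and with a mean CPM of at least 1. The causes were not tested.

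With the replicate number as a block, the log2 fold changes were -0.07, -0.24, -0.38, 0.22 and -0.06 for Ikzf1 to Ikzf5, with 0 genes called and 634 under an unadjusted p of 0.05 (edgeR). Libraries of the same number had deviations that correlated at 0.362, 0.309, -0.031 and 0.119 for numbers 1 to 4. The WT library that correlated best was WT1 for KO1 and WT2 for KO2, but WT4 for KO3 and WT3 for KO4. Since the numbers matched for some libraries only, they were not taken to pair the libraries.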
